A study of Homo sapiens with 42 samples.

Results

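The 10 genes described here encode the COPII coat and its GTPase, SEC13, SEC31A, SEC23A, SEC23B, SEC24A, SEC24B, SEC24C, SEC24D, SAR1A and SAR1B, which were taken by symbol from 28266 gene symbols in a table of raw read counts. The libraries came from IMR90, a strain of human lung fibroblasts, and from IMR90 ER:RAS, the same strain carrying a retroviral fusion of the oestrogen receptor hormone-binding domain with oncogenic RAS. In ER:RAS cells, 100 nM 4-hydroxytamoxifen (4OHT) switches RAS on and leads to oncogene-induced senescence (OIS), and DMSO was the vehicle. In IMR90 cells, bleomycin, a DNA-damaging drug, was given at 50 µg/ml for 24 h against DMSO. After treatment all cells were cultured for 7 days, then doxycycline at 1 µg/ml for 72 h induced a control shRNA or either of 2 shRNAs against COPB2, a subunit of the COPI coatomer, and RNA was taken at day 10. This gave 6 groups of 3 libraries in ER:RAS cells and 6 groups of 4 in IMR90 cells, 42 libraries in all. Doxycycline was thus present in every group, and each model is a single cell strain.

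COPII vesicles carry newly made proteins from the endoplasmic reticulum (ER) to the Golgi, against the direction of COPI vesicles. SAR1A and SAR1B are small GTPases that insert into the ER membrane when loaded with GTP. They recruit dimers of SEC23, which stimulates GTP hydrolysis by SAR1, and SEC24, which binds cargo, and this inner layer recruits the outer cage of SEC13 and SEC31. Humans have paralogues for the inner layer and the GTPase, and loss of one paralogue can cause disease: SEC23B is the gene of congenital dyserythropoietic anaemia type II, SEC23A that of cranio-lenticulo-sutural dysplasia, and SAR1B that of chylomicron retention disease. Fibroblasts depend on this route for procollagen, and senescent fibroblasts secrete many proteins.

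The start sites of the SEC23 and SAR1 pairs are shown because of their paralogue ratios. As counted, the ratio of SAR1A to SAR1B fell with senescence in both lines, and that of SEC23A to SEC23B in IMR90 cells. In ER:RAS cells the SEC23 ratio did not pass its test as counted. The start site of SEC24A is shown because its window holds a searched motif. The SEC23 and SAR1 runs are the 250 bases before a RefSeq start in GRCh38.p14, and the SEC24A run is the 30 bases around the motif in such a window, all read 5′ to 3′ on the strand of the gene.
SEC23A, chr14:39103236-39103485, minus strand: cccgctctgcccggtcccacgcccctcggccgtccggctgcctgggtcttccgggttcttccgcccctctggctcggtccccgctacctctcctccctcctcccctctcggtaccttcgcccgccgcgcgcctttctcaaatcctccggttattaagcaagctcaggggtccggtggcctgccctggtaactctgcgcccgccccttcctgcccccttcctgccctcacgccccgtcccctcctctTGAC
SEC23B, chr20:18507298-18507547, plus strand: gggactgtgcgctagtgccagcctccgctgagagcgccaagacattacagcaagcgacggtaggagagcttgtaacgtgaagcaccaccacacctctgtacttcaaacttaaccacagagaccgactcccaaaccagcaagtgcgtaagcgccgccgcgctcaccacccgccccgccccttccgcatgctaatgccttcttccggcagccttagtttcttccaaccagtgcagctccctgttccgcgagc
SAR1A, chr10:70170515-70170764, minus strand: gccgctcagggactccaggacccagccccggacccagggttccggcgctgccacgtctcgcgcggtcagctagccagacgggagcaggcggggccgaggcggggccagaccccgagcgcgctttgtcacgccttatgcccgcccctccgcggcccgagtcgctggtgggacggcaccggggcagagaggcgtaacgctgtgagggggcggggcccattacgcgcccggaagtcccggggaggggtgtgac
SAR1B, chr5:134632829-134633078, minus strand: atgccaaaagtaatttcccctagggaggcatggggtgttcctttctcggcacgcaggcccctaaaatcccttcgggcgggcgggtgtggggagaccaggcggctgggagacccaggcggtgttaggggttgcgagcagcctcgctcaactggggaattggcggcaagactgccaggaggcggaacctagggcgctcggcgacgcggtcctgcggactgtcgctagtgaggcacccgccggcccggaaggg
SEC24A, chr5:134648595-134648624, plus strand: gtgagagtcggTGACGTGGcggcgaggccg
Capitals mark the letters TGACGTGG, the core of the unfolded protein response element (UPRE) bound by XBP1 and ATF6, which in SEC23A continues past the start site and occupies positions -4 to 4, and in SEC24A positions -179 to -172 of a start site within the gene. Of 35116 promoter windows from 250 bases before to 50 after a RefSeq start, 0.729% held these letters on either strand, and 2 of the 14 windows of 9 members did. The ER stress elements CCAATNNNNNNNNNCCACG and ATTGGNCCACG and the cyclic AMP response element TGACGTCA, held by 0.0769%, 0.0541% and 1.85% of all windows, were in none of the 14. A match of letters is a description and not a bound site. No window was at hand for SEC24D. On GRCh38, SEC24A and SAR1B are neighbours on chromosome 5, at 134648382-134727909 on the plus strand and 134601149-134632828 on the minus strand, and GENCODE models of both overlap on opposite strands. How strand was used in counting is not given in the sources used here. Of 75-base stretches of the transcript, 1.01% for SAR1A and 0.0931% for SAR1B also occur in other genes, and 0 for the other members.

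Total counts ran from 13148194 to 23597310 per library. ESR1, whose hormone-binding part is in the RAS fusion, had at least 21136 counts in every ER:RAS library and at most 11 in any IMR90 library. COPB2 lay between 33.9 and 122 CPM (counts scaled to library size) in the 28 libraries with a COPB2 shRNA and between 267 and 620 CPM in the 14 with the control shRNA. Of the 5 fibroblast markers, COL1A1, COL1A2 and VIM had at least 424 CPM in every library and COL3A1 and PDGFRB at least 48.8 and 55.4 CPM, while EPCAM, CDH1, PTPRC, PECAM1 and CDH5 stayed at or below 3.10 CPM and KRT8 lay between 12.6 and 59.8 CPM. With control shRNA 4 of the 5 fibroblast markers, COL3A1, COL1A2, PDGFRB and COL1A1, were lower both in OIS and with bleomycin, and VIM was higher in OIS (log2 fold change 1.10 ± 0.22, adjusted p = 0.00121 by edgeR) and not called with bleomycin. At their low levels CDH5 and PECAM1 were called higher and KRT8 lower in OIS, and PECAM1, CDH1 and PTPRC higher with bleomycin. The part of these shifts in the results was not tested. The libraries differed in how their counts depended on the GC content of the transcript. The slope of log2 level on GC content, relative to the mean library, ran from -0.40 to 0.67 per 10 points of GC, and control-shRNA replicate 1 with 4OHT had the highest slope, 0.67, with the lowest scaling factor, 0.61. In ER:RAS cells with DMSO, replicate 2 with control shRNA and with shRNA 1 and replicate 1 with shRNA 2 had slopes of 0.65, 0.64 and 0.62. The members differed in their spread within groups. SAR1B, SEC24A and SEC23A have transcripts with 38.2%, 38.9% and 39.5% GC, and their log2 levels had within-group SDs of 0.48, 0.52 and 0.54, against 0.13 for SEC23B with 44.3% GC. Results are therefore given as counted and, beside them, with the trend on GC content and transcript length removed from each library, an alternative chosen after the data were seen. With that trend removed the SDs were 0.229, 0.175 and 0.181 for SAR1B, SEC24A and SEC23A. The SD of SEC23B rose to 0.222 and that of SEC31A from 0.247 to 0.294, and those of the other members fell. The part of GC content in this spread was not tested.

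**Figure D1:**
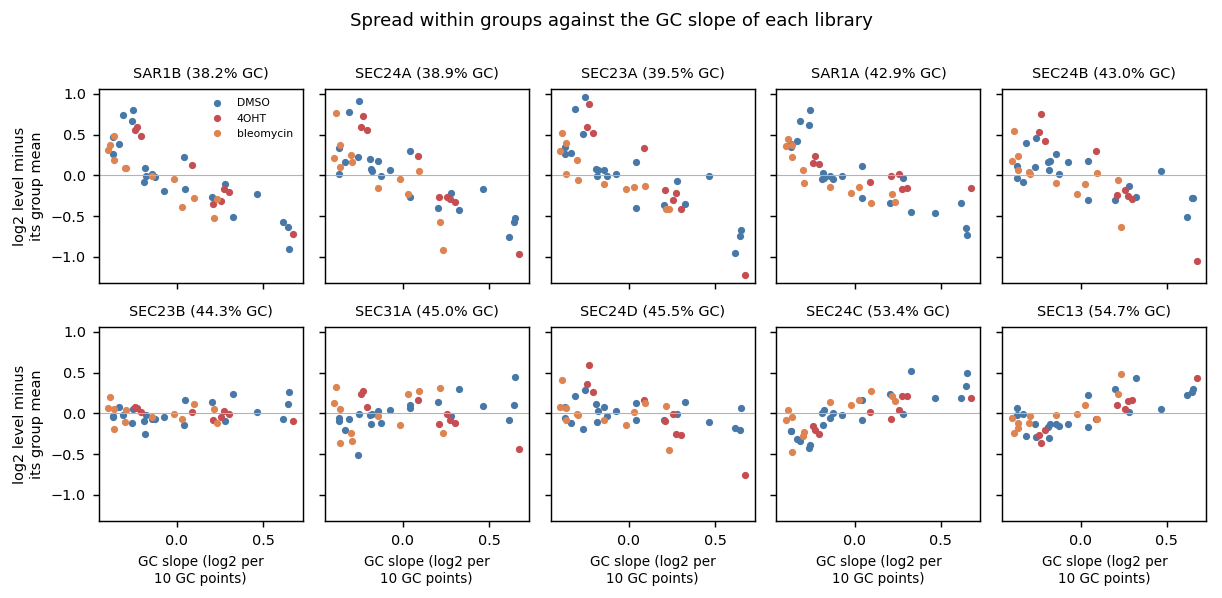
Each panel plots, for a member gene and all 42 libraries, the log2 level minus the mean of its group (vertical) against the GC slope of the library (horizontal, log2 per 10 points of GC content over all tested genes), with panels ordered by the GC content of the transcript. AT-rich members such as SAR1B (38.2% GC) were low where the slope was high, SEC13 (54.7% GC) was high there, and SEC23B (44.3% GC) hardly varied.

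Every member was expressed in all groups. On the scale of CPM per kilobase of transcript, which takes length into account, the outer coat came first in IMR90 cells with DMSO and control shRNA. This scale uses the length of 1 canonical transcript per gene and is not corrected for GC content, so the order of genes is approximate. SEC13 was at 132.9 ± 30.3 (SD, n = 4) and SEC31A at 107.2 ± 17.2, within 1 SD of each other, followed by SEC23A at 67.2 ± 11.7 and SEC24D at 50.1 ± 4.57. SEC24C at 34.9 ± 9.46 and SAR1A at 33.7 ± 8.16 did not differ beyond their spread. SEC23B at 16.4 ± 2.30 stood between these and the lowest members, SEC24B at 9.89 ± 1.51, SEC24A at 8.05 ± 1.43 and SAR1B at 6.46 ± 1.58, which overlapped within 1 SD of their neighbours. So in these proliferating cells SEC23A, SAR1A and the pair SEC24C and SEC24D each exceeded their paralogues. In ER:RAS cells with 4OHT and control shRNA, SEC23B stood at 45.2 ± 2.51 CPM per kilobase (n = 3), next to SEC24D at 45.5 ± 19.5.

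**Figure D2:**
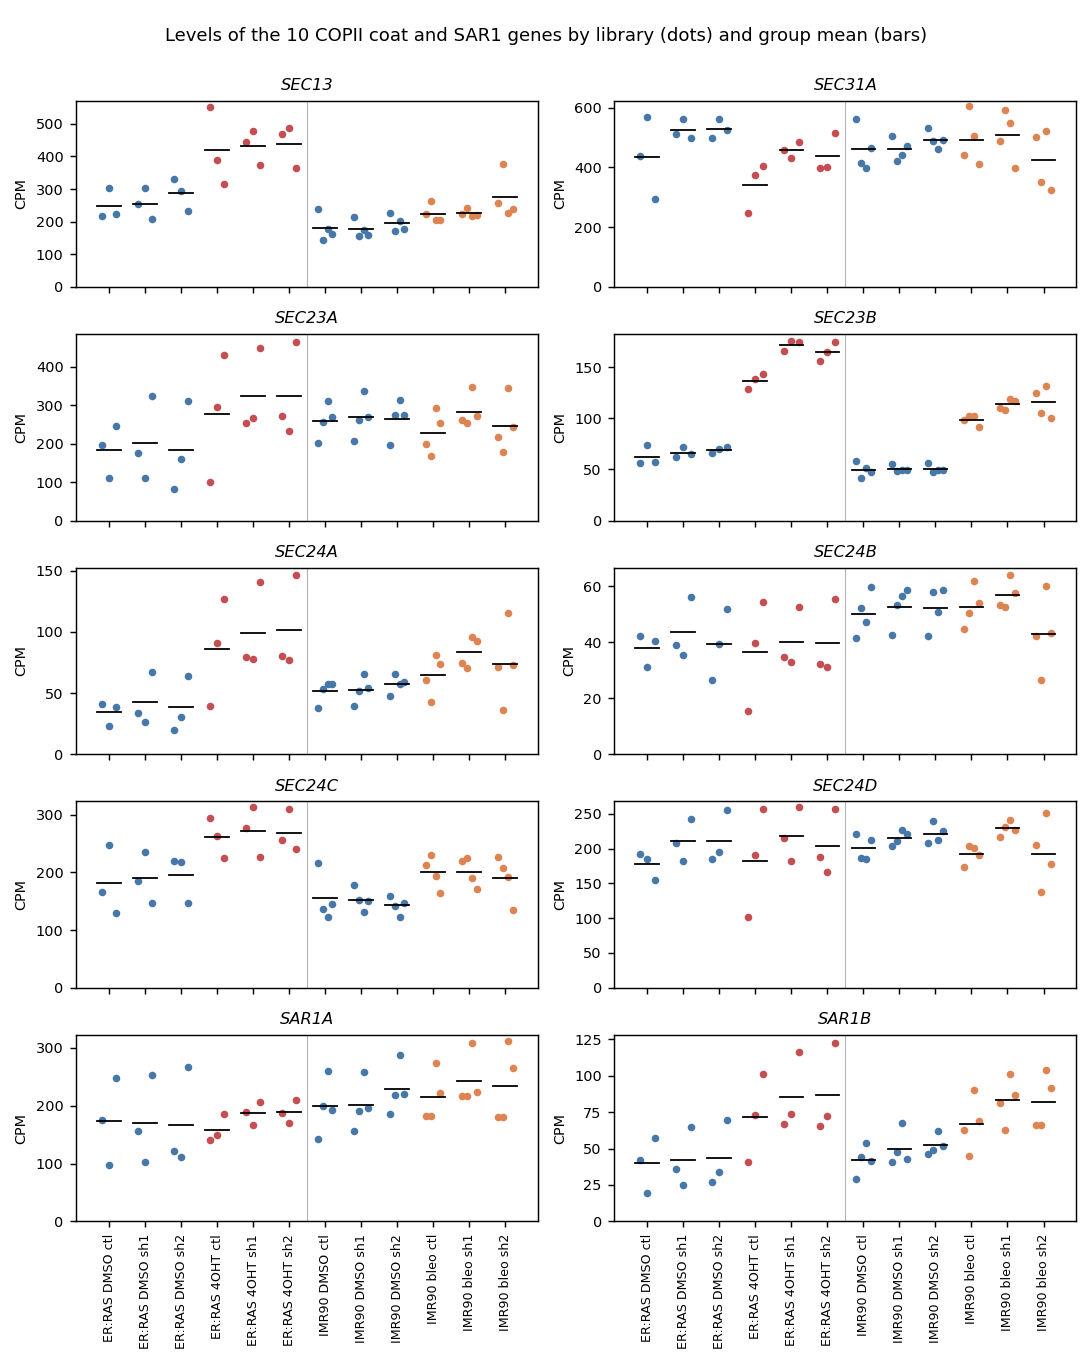
Each panel gives the level of a member in CPM (vertical, from 0) in the 12 groups (horizontal), where dots are libraries, bars are group means, ctl is control shRNA and sh1 and sh2 are the COPB2 shRNAs. SEC23B of senescent cells (red and orange) lay above that of DMSO cells (blue) in both cell lines with every shRNA, while SEC23A, SEC24A, SAR1A and SAR1B spread widely within groups.

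Among all members, SEC23B separated senescent from DMSO-treated cells most clearly. In ER:RAS cells with control shRNA it was at 55.9, 74.1 and 57.2 CPM with DMSO and at 129, 138 and 144 CPM with 4OHT. With COPB2 shRNA 1 the values were 62.2, 71.6 and 65.4 CPM with DMSO and 166, 175 and 174 CPM with 4OHT, and with shRNA 2 they were 66.3, 70.1 and 71.8 against 156, 165 and 175 CPM. No 4OHT library came near any DMSO library. SEC23B was 2.06-fold higher with control shRNA (log2 fold change 1.04 ± 0.15 SE), 2.45-fold with shRNA 1 (1.29 ± 0.15) and 2.26-fold with shRNA 2 (1.18 ± 0.15), at adjusted p = 6.4e-05, 7.67e-06 and 1.94e-05 by edgeR's quasi-likelihood test. SEC23B also rose in IMR90 cells with bleomycin. With DMSO and control shRNA SEC23B was at 57.9, 41.5, 51.8 and 47.1 CPM, and with bleomycin at 97.9, 102, 102 and 91.9 CPM. With shRNA 1 it was at 48.1 to 55.6 CPM against 107.8 to 119 CPM, and with shRNA 2 at 47.3 to 56.6 CPM against 100.3 to 131 CPM. The increases were 1.95-fold (log2 0.96 ± 0.12), 2.19-fold (1.13 ± 0.12) and 2.22-fold (1.15 ± 0.12), at adjusted p = 2.13e-06, 2.29e-07 and 1.66e-07. With the GC and length trend removed the log2 fold changes were 1.25, 1.41 and 1.27 in ER:RAS cells and 0.94, 1.08 and 1.23 in IMR90 cells, all past the threshold. SEC23B was called higher in each of these 6 comparisons under every alternative setting run and with any single library left out. In bulk RNA, more transcript per cell cannot be told apart from a changed mix of cells. The study describes the replicates of its COPB2 knockdown comparisons as independent experiments, and what libraries with the same number share is not given in the sources used here.

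SEC23A, the other SEC23 paralogue, gave a different picture. With control shRNA in the ER:RAS line it read 195, 109 and 246 CPM with DMSO and 101, 296 and 431 CPM with 4OHT, and the groups overlapped. The 4OHT library at 101 CPM was replicate 1, with the GC slope of 0.67, and the others had slopes of 0.09 and -0.23. The log2 fold change of SEC23A was 0.50 ± 0.60 (adjusted p = 0.576) as counted and 0.56 ± 0.17 (adjusted p = 0.0102) with the trend removed, where the values with shRNA 1 and shRNA 2 were 0.70 and 0.72 (adjusted p = 0.0021 and 0.00183). In IMR90 cells the control-shRNA values were 201, 255, 310 and 268 CPM with DMSO and 198, 168, 293 and 253 CPM with bleomycin. There the log2 fold changes of SEC23A with the 3 shRNAs were -0.22, 0.04 and -0.15 as counted and -0.20, -0.01 and 0.05 corrected, none past the threshold.

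SEC24, the cargo-binding subunit, has 4 genes, and as counted none passed the threshold in any of the 6 comparisons of senescent with DMSO-treated cells. SEC24A had the largest estimated fold change of the members in OIS with control shRNA and shRNA 2, and SEC23B with shRNA 1, on both scales. Its levels in ER:RAS cells with control shRNA were 40.8, 23.1 and 38.7 CPM with DMSO and 39.3, 91.0 and 127 CPM with 4OHT, where replicate 1 alone fell within the DMSO range. With shRNA 1 it was at 33.9, 26.5 and 67.1 CPM against 79.4, 78.0 and 141 CPM, and with shRNA 2 at 20.1, 30.4 and 64.1 against 80.4, 77.4 and 146 CPM, without overlap in either. The log2 fold changes of SEC24A were 1.24 ± 0.55, 1.15 ± 0.55 and 1.33 ± 0.55 (adjusted p = 0.0961, 0.12 and 0.0727). With the trend removed they were 1.32 ± 0.16, 1.28 ± 0.15 and 1.30 ± 0.16 (adjusted p = 2.51e-06, 3.08e-06 and 2.79e-06). Without 4OHT control-shRNA replicate 1 the value as counted was 1.63 (adjusted p = 0.0319). In IMR90 cells SEC24A was at 37.9 to 57.2 CPM with DMSO and 42.3 to 80.8 CPM with bleomycin under control shRNA, with log2 fold changes of 0.29, 0.63 and 0.33 as counted over the 3 shRNAs and 0.34, 0.58 and 0.56 corrected, the latter past the threshold each time (adjusted p = 0.0257, 0.000372 and 0.000531).

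SEC24C, like SEC24A, rose in all 6 comparisons on the corrected scale. Its 4OHT libraries under control shRNA were at 295, 263 and 225 CPM against 166, 248 and 130.2 CPM with DMSO, with a log2 fold change of 0.44 ± 0.22 (adjusted p = 0.132) as counted and 0.67 ± 0.12 (adjusted p = 0.000169) corrected. With bleomycin SEC24C was at 214, 231, 193 and 164 CPM against 217, 137, 122 and 146 CPM, a log2 fold change of 0.34 ± 0.18 (adjusted p = 0.167) as counted and 0.39 ± 0.10 (adjusted p = 0.00274) corrected. Without DMSO control-shRNA replicate 2 in ER:RAS or replicate 1 in IMR90 cells, the SEC24C values as counted were 0.75 and 0.55 (adjusted p = 0.0245 and 0.0236). SEC24B and SEC24D showed no call on either scale in any of the 6 comparisons. SEC24D, the most abundant SEC24 transcript per kilobase in IMR90 DMSO cells, ranged only 1.29-fold between the lowest and the highest of the 12 group means, the narrowest range of the 10 genes. SEC24B was the least variable of the low-level members, with a range of 1.56-fold.

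SEC13 and SEC31A form the outer cage, and SEC13 is also a subunit of the nuclear pore and of a lysosomal regulatory complex. SEC13 was at 218, 303 and 223 CPM with DMSO and 551, 389 and 316 CPM with 4OHT under control shRNA, with no overlap. Its log2 fold change was 0.65 ± 0.20 (adjusted p = 0.0178), and those with shRNA 1 and shRNA 2 were 0.69 ± 0.20 (adjusted p = 0.0128) and 0.54 ± 0.20 (adjusted p = 0.0439). The 4OHT library at 551 CPM was replicate 1, and without it the log2 fold change of SEC13 with control shRNA was 0.47 (adjusted p = 0.085), while with the trend removed from all libraries it was 0.60 (adjusted p = 0.00163). Leaving out DMSO control-shRNA replicate 1 or 3 gave 0.62 and 0.66 (adjusted p = 0.084 and 0.0583). With bleomycin SEC13 was at 223, 264, 205 and 206 CPM against 239, 144, 177 and 162 CPM, a log2 fold change of 0.29 ± 0.17 (adjusted p = 0.204) that was 0.25 ± 0.08 (adjusted p = 0.0149) corrected. Without DMSO control-shRNA replicate 1, at 239 CPM, it was 0.46 as counted (adjusted p = 0.0479). With shRNA 2 it passed as counted (0.46 ± 0.17, adjusted p = 0.0316), where replicate 2 of the bleomycin group read 378 CPM and the others 228 to 257 CPM, and did not pass corrected (0.18 ± 0.08, adjusted p = 0.0723). SEC31A, its partner, had log2 fold changes of -0.42, -0.27 and -0.33 in ER:RAS cells and 0.06, 0.10 and -0.26 in IMR90 cells, none past the threshold on either scale.

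The GTPases SAR1A and SAR1B also parted. SAR1B was at 28.8, 43.9, 53.9 and 41.8 CPM in IMR90 cells with DMSO and control shRNA and at 62.7, 45.0, 90.2 and 68.9 CPM with bleomycin. Only the bleomycin library at 45.0 CPM, replicate 2, fell among the DMSO values. The log2 fold changes of SAR1B with the 3 shRNAs were 0.63 ± 0.22, 0.71 ± 0.22 and 0.61 ± 0.22 (adjusted p = 0.0317, 0.0143 and 0.0283). With control shRNA this call rested on few libraries: leaving out bleomycin replicate 3 or 4 or DMSO replicate 1 or 4 gave 0.47, 0.62, 0.49 and 0.63 at adjusted p = 0.135, 0.0505, 0.0881 and 0.0632. Corrected for the trend it was 0.71 ± 0.17 (adjusted p = 0.00129). SAR1B in ER:RAS cells was at 42.4, 19.5 and 57.6 CPM with DMSO and 40.5, 73.1 and 101 CPM with 4OHT, with log2 fold changes of 0.74 ± 0.53, 0.95 ± 0.53 and 0.93 ± 0.53 (adjusted p = 0.315, 0.189 and 0.198) as counted and 1.01 ± 0.18, 1.06 ± 0.18 and 0.80 ± 0.18 (adjusted p = 0.000177, 0.000106 and 0.00123) corrected. SAR1A read 175, 97.7 and 249 CPM with DMSO and 141, 149 and 185 CPM with 4OHT, and its fold changes did not pass in any comparison as counted. Corrected, the log2 fold changes of SAR1A were 0.20, 0.38 and 0.34 in ER:RAS cells and 0.14, 0.23 and 0.28 in IMR90 cells, of which the last alone passed (adjusted p = 0.0418).

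**Figure D3:**
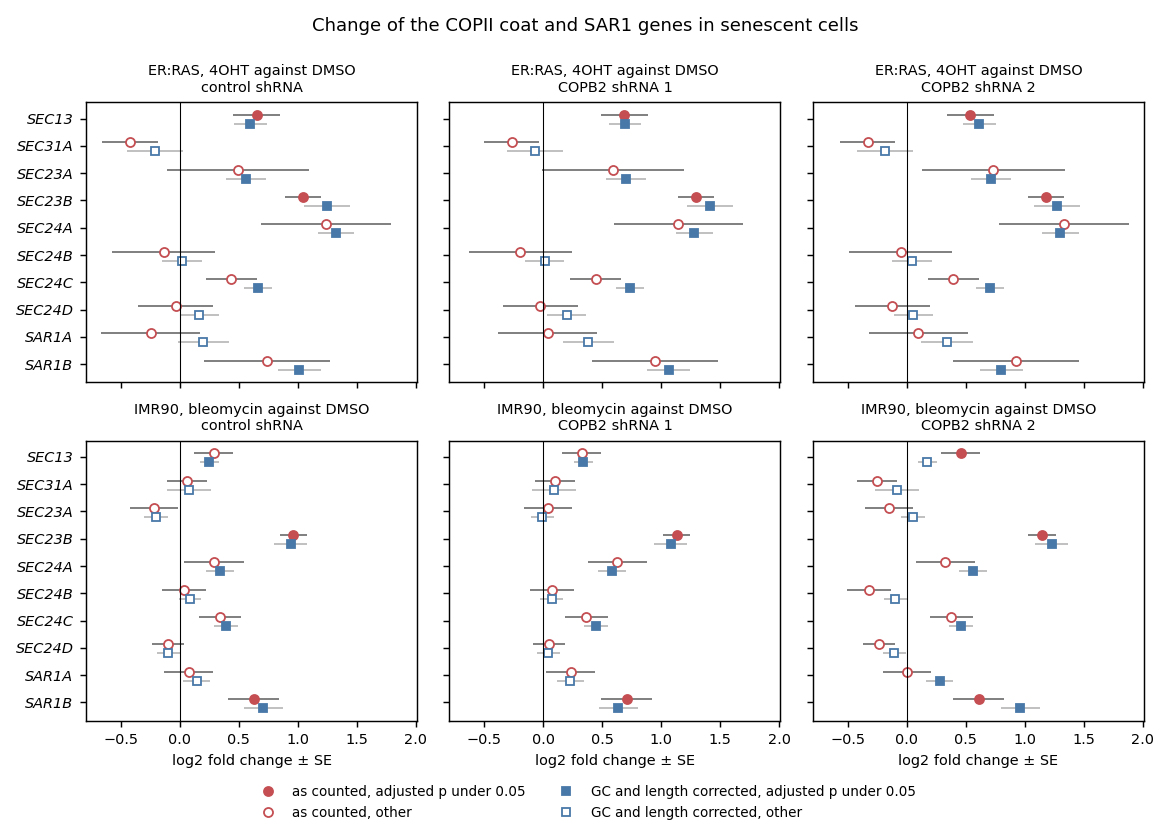
Points give log2 fold changes of senescent against DMSO-treated cells (horizontal, bars ± SE) for the 10 members in the 6 comparisons, as counted (circles) and with the GC and length trend removed (squares), filled where the adjusted p was under 0.05. SEC23B is filled in all panels on both scales, SEC24A and SEC24C are filled in all panels on the corrected scale only, and SEC31A, SEC24B and SEC24D in none.

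Counted over the members, 2 of 10 rose in OIS with each shRNA, SEC13 and SEC23B, and none fell. Over all genes tested, 35.7%, 36.9% and 36.9% were called with control shRNA, shRNA 1 and shRNA 2, and 15.5%, 15.4% and 14.9% were called higher, so the members' share was near the background. With control shRNA the same 2 were the members whose libraries did not overlap, against 38.5% of all genes. In bleomycin-treated cells SEC23B and SAR1B rose with control shRNA and shRNA 1, and SEC13 as well with shRNA 2. The background there was 31.2%, 35.2% and 40% called, 15.4%, 17.4% and 21.7% called higher and, with control shRNA, 28% without overlap, where SEC23B was the 1 such member. With shRNA 1 and shRNA 2, 5 and 4 members did not overlap in OIS, and 3 and 3 with bleomycin. The share of all genes without overlap was not kept for those shRNAs, so these counts have no background. The median log2 fold change of the members was 0.47, 0.52 and 0.47 in ER:RAS cells against -0.08, -0.12 and -0.09 over all genes, and 0.18, 0.28 and 0.17 in IMR90 cells against -0.01, 0.01 and 0.01. Corrected for GC and length, 6 members rose in OIS with each shRNA, SEC13, SEC23A, SEC23B, SEC24A, SEC24C and SAR1B. On that scale 55.5%, 57.3% and 57.2% of all genes were called in either direction. With bleomycin 5 rose each time, SEC23B, SEC24A, SEC24C and SAR1B with every shRNA. They were joined by SEC13 with control shRNA and shRNA 1 and by SAR1A with shRNA 2. There 46.6%, 50.6% and 53.7% of all genes were called in either direction. In the ER:RAS comparisons with shRNA 1 and shRNA 2, libraries with the same replicate number deviated together. With the replicate number as a block 5 members rose in each, SEC13, SEC23B, SEC24A, SEC24C and SAR1B. There 53.2% and 53.1% of all genes were called in either direction. The share called higher was not kept for the corrected scale or the block, so these counts of risen members have no matching background.

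Ratios of paralogues within a library do not depend on its scaling. SEC23A exceeded SEC23B 3.47- to 6.14-fold in CPM in the 4 IMR90 libraries with DMSO and control shRNA and 1.64- to 2.86-fold in those with bleomycin. The ranges were 3.70- to 6.82-fold against 2.31- to 2.91-fold with shRNA 1 and 3.49- to 6.36-fold against 1.70- to 2.62-fold with shRNA 2, so all DMSO libraries lay above all bleomycin libraries. The log2 ratio was lower by a mean difference of -1.20 in bleomycin-treated cells (adjusted p = 3.5e-05, two-sided exact permutation test within shRNAs, adjusted over 12 ratio tests), and the unadjusted p of 5.83e-06 is the smallest that these permutations can give. The permutations treat the libraries of the 3 shRNAs as independent. Same-numbered bleomycin libraries with a COPB2 shRNA and with control shRNA deviated together (r of 0.425 to 0.782), so these p-values can be too small. The ratio of SEC23A to SEC23B in ER:RAS cells was 3.49, 1.48 and 4.31 with DMSO and 0.78, 2.14 and 3.00 with 4OHT under control shRNA. These overlapped, and the mean difference of -0.54 over the 3 shRNAs did not pass (adjusted p = 0.27, exact permutation test). With libraries centred on the replicate number as a block, the permutation test gave adjusted p = 0.048. Labels were still permuted across replicate numbers, so that p-value is not exact. Same-numbered libraries deviated together with shRNA 1 and shRNA 2 and not with control shRNA. Corrected for GC and length the mean difference was -0.67 (adjusted p = 0.0048, exact permutation test), and -1.14 in IMR90 cells (adjusted p = 7e-05).

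SAR1A over SAR1B fell in both models. In ER:RAS cells with control shRNA the ratio was 4.12, 5.02 and 4.32 with DMSO and 3.47, 2.03 and 1.83 with 4OHT. With shRNA 1 it was at 3.91 to 4.36 against 1.77 to 2.84, and with shRNA 2 at 3.26 to 4.52 against 1.71 to 2.87. No 4OHT library reached the DMSO library with the lowest ratio of the same shRNA, and the mean log2 difference was -0.86 (adjusted p = 0.001, exact permutation test, unadjusted p = 0.00025, the smallest possible). In IMR90 cells the ratio was 4.53 to 4.95 with DMSO and 2.90 to 4.03 with bleomycin under control shRNA, and the mean log2 difference over the shRNAs was -0.54 (adjusted p = 3.5e-05, exact permutation test). Corrected, the differences were -0.67 in ER:RAS and -0.54 in IMR90 cells (adjusted p = 0.00075 and 0.00014). With a single shRNA the smallest exact p is 0.1 in ER:RAS and 0.0286 in IMR90 cells, so there no ratio could pass after adjustment. For this ratio and the SEC24 ratio below, the permutations likewise treat libraries of different shRNAs as independent, and the p-values share that limit.

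The sum of SEC24A and SEC24B over that of SEC24C and SEC24D was at most 0.405 in every library. The ratio was 0.125 to 0.278 with DMSO and 0.138 to 0.376 with 4OHT under control shRNA. The mean log2 difference over the shRNAs was 0.47 (adjusted p = 0.228, exact permutation test), or 0.41 corrected (adjusted p = 0.00075). With libraries centred on the replicate number the permutation test gave adjusted p = 0.0198, which is not exact, as for SEC23 above. In IMR90 cells the difference was 0.07 (adjusted p = 0.965, exact permutation test) and 0.11 corrected (adjusted p = 0.00889).

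**Figure D4:**
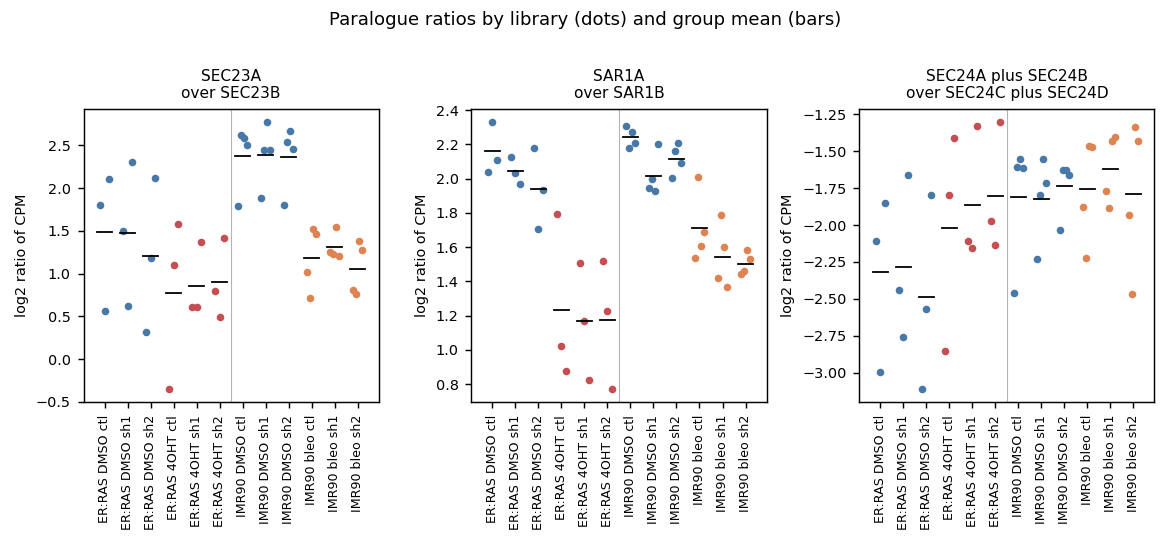
Log2 ratios of CPM (vertical) of SEC23A to SEC23B, SAR1A to SAR1B and SEC24A plus SEC24B to SEC24C plus SEC24D in the 12 groups (horizontal), where dots are libraries, bars are group means and colours are DMSO (blue), 4OHT (red) and bleomycin (orange). The ratio of SAR1A to SAR1B was lower in senescent cells of both lines, by -0.86 and -0.54, and that of SEC23A to SEC23B separated bleomycin from DMSO in all IMR90 libraries.

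The second question was how the COPII genes responded to loss of a COPI subunit. The mean of both shRNAs lowered COPB2 to 0.140 of the control level in ER:RAS cells with DMSO, 0.219 with 4OHT, 0.155 in IMR90 cells with DMSO and 0.212 with bleomycin. None of the 10 members was called in any of these 4 comparisons, nor with either shRNA alone, by edgeR as counted or corrected for GC and length, and DESeq2's Wald test called none. Few genes were called by edgeR as counted: with DMSO, 0.00699% of all genes for each shRNA and 0.0140% for their mean in ER:RAS cells, and 0.00676% for each shRNA and for their mean in IMR90 cells. For each shRNA alone the 1 gene called there was COPB2. With 4OHT the shares were 0.140%, 0.224% and 0.266%, and with bleomycin 0.00676%, 0.0744% and 0.0474%. Corrected for GC and length, the mean of both shRNAs gave 0.014% and 1.71% in ER:RAS cells with DMSO and 4OHT. It gave 0.0203% and 0.108% in IMR90 cells with DMSO and bleomycin. DESeq2's Wald test called 4 and 93 of 14297 genes and 2 and 15 of 14762 for the same means. With 4OHT and shRNA 2 alone the share corrected was 1.3%, and DESeq2 called 70 of 14297. For the mean of both shRNAs, 0 members with DMSO in either line and 1 of 10 with each senescence treatment, SEC23B both times, had an unadjusted p under 0.05. Of all genes 5.14% with 4OHT and 2.93% with bleomycin had such a p, and 0.958% and 1.13% with DMSO in ER:RAS and IMR90 cells, so a single member is near the background.

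SEC23B, which in 4OHT cells had been at 129 to 144 CPM with control shRNA, was at 166 to 175 CPM with shRNA 1 and 156 to 175 CPM with shRNA 2, all above the controls. Its log2 fold change for both shRNAs was 0.29 ± 0.13 (unadjusted p = 0.0434, adjusted p = 0.934 by edgeR). With bleomycin SEC23B was at 91.9 to 102 CPM with control shRNA, 107.8 to 119 CPM with shRNA 1 and 100.3 to 131 CPM with shRNA 2, and the log2 fold change was 0.22 ± 0.10 (unadjusted p = 0.0372, adjusted p = 1). With DMSO the values were 0.09 ± 0.13 in ER:RAS and 0.05 ± 0.10 in IMR90 cells. Subtracting the effect of COPB2 loss in DMSO-treated cells from that in senescent cells gave 0.19 ± 0.18 in ER:RAS and 0.18 ± 0.14 in IMR90 cells for SEC23B, and no member passed that test (0.0140% of all genes in ER:RAS and 0% in IMR90 cells did, where 1.04% of all genes had an unadjusted p under 0.05).

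The data bound the response of the members unequally. For SEC13 the 95% interval of the log2 fold change of both shRNAs with 4OHT reached from -0.32 and for SEC31A from -0.06, with estimates of 0.05 and 0.38. Over all members the intervals spanned -0.91 to 1.33 with 4OHT and -1.07 to 1.23 with DMSO in ER:RAS cells, widest for SEC23A. In IMR90 cells they spanned -0.42 to 0.75 with bleomycin and -0.38 to 0.68 with DMSO, so there a change of a member by a log2 unit lay outside every interval. Estimates were above 0 for all 10 members with 4OHT, with a median of 0.21 against -0.08 over all genes, and for 7 of 10 with bleomycin (0.15 against 0.02). With DMSO they were above 0 for 9 of 10 members in each line, with medians of 0.09 in ER:RAS and 0.07 in IMR90 cells. Of all genes 38.9% with 4OHT, 54.2% with bleomycin and 49.3% and 46.5% with DMSO had estimates above 0. The ratio of SAR1A to SAR1B was lower with the COPB2 shRNAs in IMR90 cells, by a mean log2 difference of -0.18 (adjusted p = 0.0113, exact permutation test within treatments). Corrected for GC and length this difference was -0.14 (adjusted p = 0.215), without bleomycin control-shRNA replicate 2 it was -0.13 (adjusted p = 0.0618, exact permutation test), and in ER:RAS cells it was -0.12 as counted (adjusted p = 0.736). Neither of the other ratios passed in either line.

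**Figure D5:**
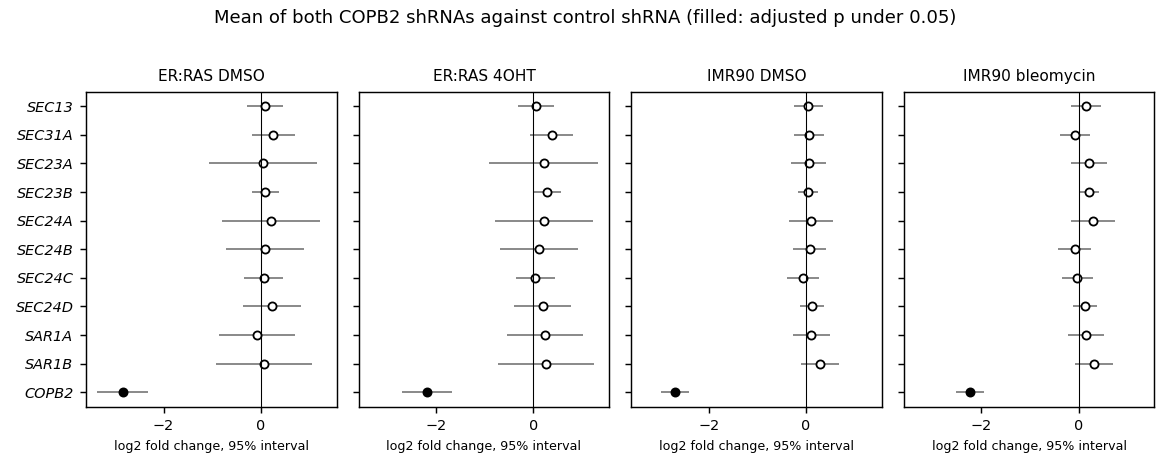
Log2 fold change of both COPB2 shRNAs against control shRNA (horizontal, bars are 95% intervals) for the 10 members and COPB2 in the 4 cell states, filled where the adjusted p was under 0.05. Only COPB2 is filled, at -2.84, -2.19, -2.69 and -2.24 from left to right, and the intervals of SEC23A, SEC24A and SAR1B in ER:RAS cells are the widest.

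With DMSO and control shRNA no member was called by edgeR between ER:RAS and IMR90 cells, where 0.346% of all genes were called. DESeq2's Wald test called no member and 165 of 15298 genes. An unadjusted p under 0.05 was found for 2 of 10 members and for 11.5% of all genes. The lowest adjusted p was 0.28, for SEC23B, with a log2 difference of ER:RAS minus IMR90 of 0.33 ± 0.12, and SEC13 followed with 0.46 ± 0.20 (adjusted p = 0.387). The responses to 4OHT and to bleomycin with control shRNA differed past the threshold for no member by edgeR or DESeq2, with 0 at an unadjusted p under 0.05 in edgeR. Of all genes 20.3% passed in edgeR and 30.7% had such an unadjusted p, and DESeq2 called 3471 of 15298. For SEC23B the difference of the responses was 0.14 ± 0.17, an interval from -0.21 to 0.49. For SEC24A it was 1.00 ± 0.53 (adjusted p = 0.204). Corrected for GC and length, SEC13, SEC23A and SEC24A passed, each with the larger response to 4OHT, where 36.3% of all genes passed. Treatment and cell line are confounded in this comparison and cannot be told apart.

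Other genes of the route from ER to Golgi were followed from lists of regulators of ER exit sites, export receptors, and tethers and SNAREs. Of 9 tested exit-site genes PDCD6, the calcium sensor ALG-2 that binds SEC31A, rose in all 6 senescence comparisons, by log2 fold changes of 0.80, 0.84 and 0.84 in ER:RAS and 0.44, 0.38 and 0.65 in IMR90 cells. TFG, which organises COPII carriers, joined it with bleomycin and shRNA 2 (0.28), and no exit-site gene fell. Of 12 export receptors CNIH3 and CNIH1, cornichon cargo receptors, rose in OIS with every shRNA, by 3.12 and 0.63 with control shRNA. MCFD2, which acts with LMAN1 in the export of coagulation factors, rose with bleomycin by 1.11, 1.19 and 1.03. CNIH3 also rose with bleomycin under shRNA 1 and shRNA 2 (1.29 and 0.89), and LMAN2 and SURF4 under shRNA 2 (0.74 and 0.64). Of 15 tethers and SNAREs TRAPPC4 rose in OIS with every shRNA, by 1.08 with control shRNA. It also rose with bleomycin under shRNA 1 and shRNA 2 (0.59 and 0.98). SEC22B rose with bleomycin under control shRNA and shRNA 1 (0.41 and 0.45). RAB1A and GOSR2 rose with bleomycin under shRNA 1 (0.51 and 0.41). YKT6, RAB1B and TRAPPC3 did so under shRNA 2 (0.66, 0.62 and 0.45), where 5 of the 15 were called. No receptor, tether or SNARE was lower in any of the 6 comparisons. The shares of all genes called higher with control shRNA were 15.5% in OIS and 15.4% with bleomycin. They were 15.4% and 17.4% with shRNA 1, and 14.9% and 21.7% with shRNA 2.

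Of 8 tested transcription factors and proteases that set secretory capacity, none rose in OIS with any shRNA. CREB3L4, CREB3L1 and MBTPS1, which encodes the protease that releases such factors from the membrane, fell with control shRNA by 1.44, 1.00 and 0.43 on the log2 scale, and with both COPB2 shRNAs as well. CREB3L1 is known as an activator of collagen and secretory genes. With bleomycin and control shRNA CREB3L4 fell by 1.06 and CREB3 rose by 0.69, and both did so with the COPB2 shRNAs as well. Under shRNA 1 ATF6 also rose (0.35) and MBTPS1 fell (-0.28). Of all genes 35.7% were called in OIS with control shRNA, and 15.5% of all genes were called higher. With bleomycin 31.2% were called with control shRNA and 35.2% with shRNA 1, and 15.4% and 17.4% were called higher. Of 6 genes that report on the unfolded protein response, 3 rose with COPB2 loss in 4OHT cells and 2 in bleomycin-treated cells for the mean of both shRNAs, where 0.266% and 0.0474% of all genes were called. In 4OHT cells these were DDIT3, HSPA5 and HERPUD1, at log2 fold changes of 2.54, 1.85 and 1.51 (adjusted p = 0.00263, 0.0229 and 0.0016), while DNAJB9, HYOU1 and SDF2L1 had 0.85, 0.64 and 0.41 and did not pass. With shRNA 1 alone HSPA5 did not pass there (1.72, adjusted p = 0.0954), and with shRNA 2 alone all 3 did. In bleomycin-treated cells DDIT3 and HERPUD1 had log2 fold changes of 0.90 and 0.86 (both at adjusted p = 0.0178), which passed with shRNA 2 alone and not with shRNA 1 alone, where none of the 6 did. None of the 6 passed with DMSO in either line. None passed the test of the difference between senescent and DMSO-treated cells, which 0.0140% of all genes passed in ER:RAS and 0% in IMR90 cells. In ER:RAS cells that log2 difference was 2.32 ± 0.44 for DDIT3 (adjusted p = 0.122 by edgeR). It was 1.83 ± 0.42 for HSPA5 and 1.11 ± 0.26 for HERPUD1 (both at adjusted p = 0.448). For DNAJB9, SDF2L1 and HYOU1 it was 0.84, 0.53 and 0.47. In IMR90 cells the estimates of the 6 ran from 0.31 to 0.85. SEC23A and SEC24A have windows that hold the UPRE letters shown above. For the mean of both COPB2 shRNAs their log2 fold changes were 0.21 ± 0.52 and 0.21 ± 0.47 with 4OHT. With bleomycin they were 0.22 ± 0.18 and 0.30 ± 0.22.

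Over the 12 group means SEC23B varied most of all members, with an SD of 0.67 on the log2 scale and a 3.46-fold range from IMR90 DMSO control-shRNA cells to ER:RAS 4OHT cells with shRNA 1. The genes whose log2 group means followed it most closely among 10487 genes were FAM214B, FBXL16, ADIPOR1, NOCT and PLEKHB2, with Pearson's r of 0.996, 0.994, 0.993, 0.993 and 0.992 over 12 groups that share 4 combinations of line and treatment.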

How the data were processed

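Poly(A) RNA of 42 samples of human lung fibroblasts was sequenced as 75-base single-end reads from directional libraries, and the authors deposited raw read counts per gene symbol, with no normalisation. The submitters' processing notes name DRAGEN, STAR 2.7.8a, DESeq2 1.32.0 and hg38, whereas the study's methods name Tophat with a first-strand setting and hg19. Which made the counts, and the strand setting of the counting step, is not given in the sources used here. Libraries were grouped by their titles.

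From the counts, genes were filtered with filterByExpr, scaled by TMM and tested with edgeR 4.0.16 (robust quasi-likelihood F-test, R 4.3.3), in 1 fit for each cell line (14297 genes in ER:RAS, 14783 in IMR90 cells) and 1 of all libraries (15299 genes) for comparisons between lines. Benjamini-Hochberg adjusted p under 0.05 over all genes tested was a call. CPM used TMM scaling over 42 libraries, and lengths and GC content of canonical transcripts came from GENCODE for 95.4% of tested genes. Paralogue ratios were compared by exact two-sided permutation tests, which took libraries of different shRNAs or treatments as independent. Alternatives were DESeq2 1.42.0, its size factors, no filter, a fold threshold, other sets of libraries, a replicate block, each library left out, and a GC and length correction chosen after the data were seen. Total counts were 13148194 to 23597310 per library, and the counting error of a value depends on the count of its gene.

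Deviations of same-numbered libraries from their group means correlated above 0.1 in every pair for 4OHT against DMSO with shRNA 1 (0.471 to 0.791) and shRNA 2 (0.534 to 0.798), for both shRNAs against control with bleomycin (0.442 to 0.782 and 0.425 to 0.782) and for shRNA 2 with DMSO in IMR90 cells (0.178 to 0.727), and not in the other comparisons. The pairing comes from these correlations, since the labels give only the numbers. All 10 members were described. Other genes were named only where called, at most 4 for each list and comparison, and the 5 genes most like the member of largest SD over groups were listed. The members and gene lists were chosen with earlier results of these data known.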

Additional observations from a re-analysis of the deposited data

Results flagged for a closer look

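In 60 sets of 4 IMR90 libraries for the member levels and 18 for the paralogue ratios, 5 had a library whose gap to its nearest neighbour exceeded Dixon's limit at the 95% level, and chance gives such a gap in about 1 set of 20. SAR1A stood at 308.3 CPM in bleomycin shRNA 1 replicate 3, against 217.2 to 224.4 CPM in the others. In the same library the log2 ratio of SEC23A to SEC23B was 1.54, against 1.21 to 1.25. Its GC slope of -0.40 was the lowest of the 42 libraries. In DMSO control-shRNA replicate 1 the log2 ratio of SEC23A to SEC23B was 1.79, against 2.51 to 2.62, and that of SEC24A plus SEC24B to SEC24C plus SEC24D was -2.46, against -1.61 to -1.56. The GC slope of that library was 0.32, against -0.34 to -0.14 in the others of its group. In DMSO shRNA 2 replicate 1 the SEC24 log2 ratio was -2.03, against -1.66 to -1.63, with a GC slope of 0.05, against -0.37 to -0.18 in the others. The part of the GC slope in these values was not tested.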

How the results depend on the processing

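SEC23B was called in all 6 senescence comparisons under every setting. The number of members called otherwise moved with several settings. With the replicate block 5 members were called in OIS with control shRNA, shRNA 1 and shRNA 2 and 4 with bleomycin and shRNA 1, and the block took no other count beyond 1.5 times. Over all genes, the block called 7274, 7612 and 7588 of 14297 in these OIS comparisons and 6632 of 14783 with bleomycin and shRNA 1. With the GC and length correction the counts were 6, 6 and 6 in OIS, 5, 5 and 5 with bleomycin and 3 for the difference of responses. The shares of all genes called were then 55.5%, 57.3% and 57.2% in OIS, 46.6%, 50.6% and 53.7% with bleomycin and 36.3% for the difference. With all 42 libraries in 1 fit the member counts were 4 and 4 in OIS with shRNA 1 and shRNA 2, and 1 and 1 with bleomycin under control shRNA and shRNA 1. Of 15299 genes, 6639, 6603, 4080 and 4632 were called in these comparisons. With only the libraries compared, 1 was called in OIS with control shRNA, 1 with shRNA 2 and 1 with bleomycin under control shRNA, and without a filter 1 in OIS with shRNA 2. Over all genes these settings called 2911 of 13507, 4215 of 13558, 3391 of 13850 and 5097 of 21212. The number of members called thus moved along with the number of all genes called. Leaving out single libraries gave 1 to 3, 1 to 2 and 1 to 3 in OIS and 1 to 3, 1 to 3 and 1 to 4 with bleomycin, and 0 in every knockdown comparison. The share of all genes called was not kept for single libraries left out. A count of 1 came in OIS without DMSO control-shRNA replicate 1 or 3, 4OHT shRNA 1 replicate 2, 4OHT shRNA 2 replicate 1 or 2 or DMSO shRNA 2 replicate 2, and with bleomycin without bleomycin control-shRNA replicate 3 or 4, DMSO control-shRNA replicate 4, DMSO shRNA 1 replicate 1 or 4 or DMSO shRNA 2 replicate 2 or 4.

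In OIS with control shRNA SEC24D, at -0.03, was 0.071 with DESeq2's size factors and with its Wald test, 0.016 without a filter, 0.044 with all libraries and 0.17 corrected, and corrected values of SEC24B and SAR1A were 0.021 and 0.20. Leaving out single libraries, SEC24B ran from -0.52 to 0.27, SEC24D from -0.34 to 0.30 and SAR1A from -0.49 to 0.19 there, and with bleomycin SEC31A ran from -0.054 to 0.18, SEC24B from -0.039 to 0.13 and SAR1A from -0.048 to 0.24. None of these passed.

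With libraries centred on the replicate number, the permutation test gave adjusted p = 0.048 for the ER:RAS ratio of SEC23A to SEC23B (-0.54). For the SEC24 pairs (0.47) it gave adjusted p = 0.0198. Labels were permuted across replicate numbers, so these p-values are not exact. Corrected, the ER:RAS SEC23 and SEC24 differences were -0.67 and 0.41, and the IMR90 SEC24 ratio was 0.11. The SAR1 ratio under COPB2 shRNA in IMR90 cells was -0.14, and the SEC23 ratio under COPB2 shRNA 0.029 in ER:RAS and -0.035 in IMR90 cells. Within control shRNA, shRNA 1 and shRNA 2 alone, where permutations cannot pass, the ER:RAS SAR1 differences were -0.93, -0.87 and -0.77, the IMR90 SEC23 differences -1.20, -1.08 and -1.31 and the IMR90 SAR1 differences -0.53, -0.47 and -0.61. The IMR90 SEC24 difference was -0.052 within shRNA 2. Under COPB2 shRNA the SAR1 difference in IMR90 cells was -0.18 within DMSO and -0.19 within bleomycin, the ER:RAS SEC24 difference -0.070 within DMSO and the ER:RAS SEC23 difference 0.10 within 4OHT.
Leaving out single libraries, the COPB2 shRNA differences ran from -0.31 to 0.18 (SEC23), -0.20 to 0.025 (SAR1) and -0.15 to 0.21 (SEC24) in ER:RAS cells and from -0.094 to 0.060, -0.21 to -0.13 and -0.067 to 0.096 in IMR90 cells, and the IMR90 SEC24 difference with bleomycin from -0.0060 to 0.14. The causes were not tested.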
